A study of Mus musculus with 24 samples.

Results

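The bone morphogenetic protein (BMP) pathway and the Id genes were followed through 10 genes, chosen by gene symbol: the ligands Bmp4 and Bmp7, the type I receptors Bmpr1a and Bmpr1b, the inhibitory Smads Smad6 and Smad7, and Id1, Id2, Id3 and Id4. All 10 were present in both expression tables, among 17501 genes listed for mouse embryonic stem cells (mESC) and 16024 listed for neural progenitor cells (NPC), or 17953 genes in either table. The series holds 24 RNA-seq libraries, 12 from mESC and 12 from NPC, with 2 libraries for each of 6 genotypes of Htt, the gene whose expanded CAG repeat causes Huntington disease. Besides wild-type cells (WT) and cells labelled as knockouts of Htt (KO), there were 4 heterozygous Hdh knock-in lines with 20, 50, 92 and 111 CAG repeats, written Q20, Q50, Q92 and Q111; the culture protocol gives 89 in place of 92 for the third length. The mESC were grown in serum with leukemia inhibitory factor (LIF) on irradiated CF-1 embryonic fibroblasts as feeder cells, and the NPC were derived from them in serum-free medium and kept in FGF and EGF on laminin. Each knock-in length is, as far as the labels say, 1 line per cell type, and the labels give neither the zygosity nor the making of the knockout, so a p-value here measures the spread between libraries of a line and not between independent lines.

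BMP ligands bind a pair of type I and type II receptors, and the type I receptor then phosphorylates Smad1, Smad5 and Smad9. These join Smad4, enter the nucleus and switch on direct targets, of which the Id genes are the best known and Smad6 and Smad7 act back on the receptor as inhibitors. Id proteins are helix-loop-helix proteins without a DNA-binding region: they capture E proteins, the partners that proneural factors need. In mESC, BMP together with LIF sustains self-renewal through Id genes, and in neural progenitors BMP favours astrocytes over neurons and oligodendrocytes.

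Promoter sequences from RefSeq (GRCm38.p6) were found for 7 of the 10 genes. Shown here are the 250 bases upstream of the start of Bmp4, Smad6 and Id4, a ligand, an inhibitor and a target with lower levels in the longer-repeat NPC than in Q20 in the values given further on. Capitals mark GGCGNC or its reverse complement, a sequence that BMP-activated Smads are known to bind, and overlapping matches are all capitalised. The windows lie at chr14:46390670-46390919 (minus strand, Bmp4), chr9:64022060-64022309 (minus strand, Smad6) and chr13:48260866-48261115 (plus strand, Id4).
Bmp4: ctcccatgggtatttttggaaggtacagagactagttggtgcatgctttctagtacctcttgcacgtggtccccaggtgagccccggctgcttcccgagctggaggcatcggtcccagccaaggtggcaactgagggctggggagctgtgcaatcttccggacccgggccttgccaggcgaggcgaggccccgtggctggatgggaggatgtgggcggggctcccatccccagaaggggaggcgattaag
Smad6: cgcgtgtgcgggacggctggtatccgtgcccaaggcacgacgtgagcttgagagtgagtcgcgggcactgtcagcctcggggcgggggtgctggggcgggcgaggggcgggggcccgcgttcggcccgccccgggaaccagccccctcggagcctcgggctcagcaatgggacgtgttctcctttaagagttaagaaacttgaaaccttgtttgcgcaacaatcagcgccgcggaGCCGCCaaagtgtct
Id4: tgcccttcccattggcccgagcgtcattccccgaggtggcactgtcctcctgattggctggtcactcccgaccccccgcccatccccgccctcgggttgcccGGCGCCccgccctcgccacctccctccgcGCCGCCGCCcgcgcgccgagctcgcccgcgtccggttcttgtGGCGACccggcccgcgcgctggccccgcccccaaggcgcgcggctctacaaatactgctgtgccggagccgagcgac
GGCGNC, searched on both strands, occurred 0 times upstream of Bmp4, 1 time upstream of Smad6 and 4 times upstream of Id4, and 30.7% of the 32817 RefSeq windows of this length held it. The GC content of the windows was 63.2%, 66.8% and 75.6%. CAGAC, a second Smad-binding sequence, and its palindromic pair GTCTAGAC were in none of these 3 windows, while 42.2% and 0.168% of all windows held them. These matches describe the letters only.

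The libraries held 58546211 to 81502284 reads in mESC and 48525333 to 118038952 in NPC, recovered from the deposited values as described under processing. Levels are given in the authors' normalised CPM, reads per gene scaled to the size of the library. The mESC and NPC tables were scaled separately, so no level is compared between them. The summed level of 8 pluripotency markers was 1702 to 3188 in mESC, and that of 8 neural progenitor markers was 2714 to 7066 in NPC, so the libraries carried the markers of their labels. The Q20 NPC libraries had the lowest progenitor sums, 2714 and 2824, and the highest pluripotency sums in NPC, 108 and 106 over the 5 listed markers of 8 against 4.76 to 26.5 in the other genotypes. Those sums came from Pou5f1 (90.1 and 87.4, against at most 0.405 elsewhere) and Nanog (12.996 and 13.703, against at most 1.63), while Esrrb (0.721 and 0.751) and Klf4 (3.19 and 3.83) were not raised. Because the Q20 NPC stand apart in this way, the 10 genes and the further pathway genes were also tested against WT in Q50, Q92 and Q111. Htt itself was 100 and 94.9 in the KO NPC and 137 and 177 in the WT NPC (log2 change -0.67, SE 0.14, limma adjusted p = 0.0673). In mESC the library labelled KO 1 had 139 and KO 2 had 68.5, against 124 and 113 in WT (log2 change -0.28, SE 0.31, limma adjusted p = 1), so the label of the first is not borne out by Htt, and any KO direction in mESC below rests on these labels.

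Changes were tested with limma on log2(CPM + 1) across all genes of a table that reached a CPM of 1 in at least 2 libraries, 13916 in mESC and 13206 in NPC, and a change was called where the p adjusted over that table (Benjamini-Hochberg) was under 0.05. On this scale the change of a gene with a low level is understated. All 10 genes entered the test in both tables, but Bmp4 did so in NPC only through its Q20 libraries, so its Q20 differences follow in part from that filter. Within NPC the median CPM per kilobase of transcript was highest for Bmpr1a (51.7), followed by Id3 (38.7), Id2 (14.1), Bmpr1b (6.14), Id1 (5.65), Bmp7 (2.81), Smad7 (0.564), Id4 (0.26), Smad6 (0.227) and Bmp4 (0.038). In mESC, Bmpr1a was again highest (22.9), and Bmp4 was second (11.3). Both orders rest on medians over genotypes whose levels differ.

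In NPC, all 10 genes had lower estimates in Q111 than in Q20, and 5 of them fell by the test: Bmp7, Bmp4, Bmpr1a, Smad6 and Smad7. Among them, Bmp4 was tested in NPC only through its Q20 libraries. Of all tested genes, 16.1% fell in this comparison. The log2 changes of the 10 ran from -3.39 to -0.23 with a median of -1.13, against a median of 0.03 over all genes. Without Q111 library 2, Id3 was 0.03 higher and the other 9 stayed lower. A linear trend over the 8 knock-in NPC libraries, given as the log2 change over the 91 repeats from 20 to 111, also had a negative estimate for each of the 10, with 5 called: Bmp7, Id4, Smad7, Smad6 and Bmpr1b. In that trend 10.1% of all genes fell by the test, and the median was -1.13 for the 10 against 0.04 for all genes. Repeat length differs only between 4 lines, and when each line was reduced to 1 mean, none of the 10 trends was called (limma adjusted p from 0.323 to 0.466 for the 5), nor was any gene of the table (1831 at an unadjusted p under 0.05). Without either single Q20 library 0 of the 10 trends was called, and without either Q111 library 1 was. Without the whole Q20 line 1 was called, Bmp7, and the estimate of Bmp4 turned to 0.47. The knock-in comparisons share the Q20 libraries.

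Against WT in place of Q20, a reference added after the Pou5f1 values were seen, fewer of these genes changed. In Q111, 2 of the 10 fell, Bmp7 (log2 change -3.59, SE 0.53, limma adjusted p = 0.00435) and Smad6 (-1.02, SE 0.17, limma adjusted p = 0.00656), and none rose, where 7.9% of all genes fell and 8.74% rose. In Q50 and Q92, 0 of the 10 were called by limma, and 2 in each had an unadjusted p under 0.05. Of all genes, 4.54% rose and 2.08% fell in Q50, and 3.42% rose and 5.25% fell in Q92. The estimates against WT were lower for 7 of the 10 in Q111 and Q92 and for 5 in Q50, with medians of -0.58, -0.54 and -0.02, so the shared direction seen against Q20 was not kept. In Q111 the estimates of Bmp4 (0.32), Bmpr1b (0.24) and Id2 (0.14) turned positive, and in Q50 that of Bmpr1b was 0.44, while those of Bmpr1a (-0.44) and Smad7 (-0.72) in Q111 kept their sign without a call.

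**Figure D1:**
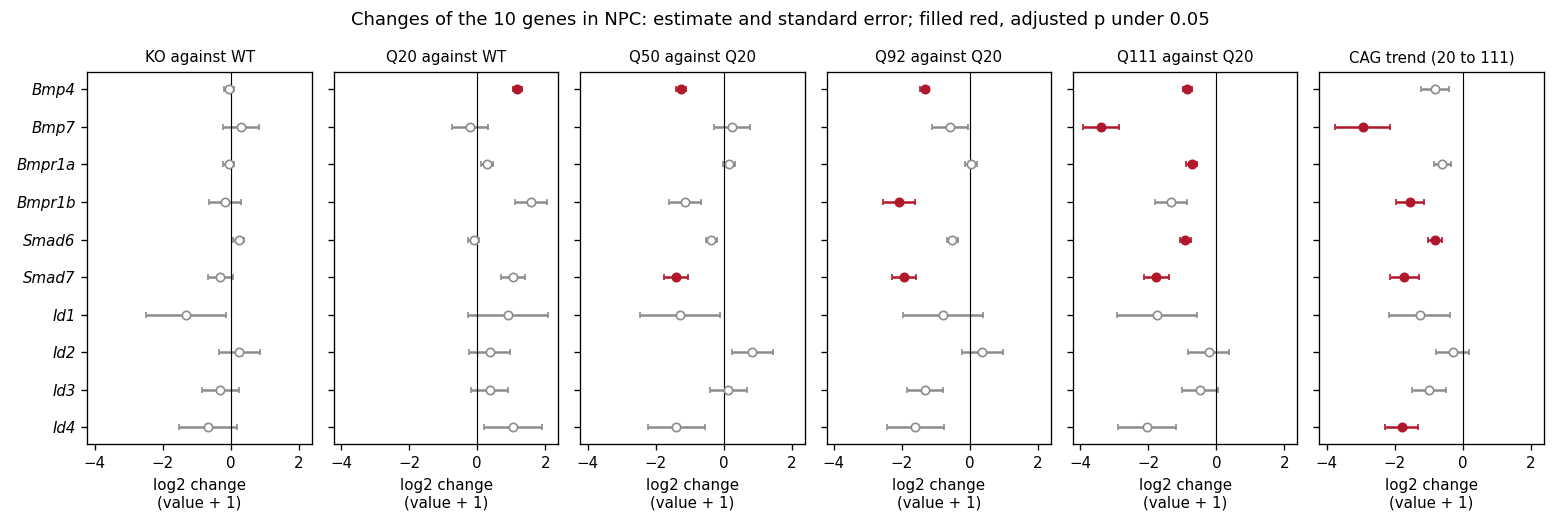
Log2 change on the log2(CPM + 1) scale (x axis, with its standard error) of the 10 genes (y axis) in NPC, 1 panel per comparison, with filled red points for limma adjusted p under 0.05. All 10 points lie left of 0 in the Q111 panel, where Bmp7 reaches -3.39, while none of the 10 is called in the KO panel.

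Among the ligands, Bmp7 (GRCm38 chromosome 2, 172868012 to 172940321, minus strand), which signals through the BMP type I receptors, was nearly lost from the Q111 NPC. Its CPM was 0.257 and 0.0992 in Q111, against 11.9 and 10.7 in Q20, 12.3 and 14.9 in Q50, and 7.66 and 6.68 in Q92. The WT libraries had 6.25 and 26.5 and the KO libraries 20.7 and 12.8, so the Q111 values lay below those of every other genotype. The mean was 63.4-fold lower in Q111 (0.178 ± 0.112, SD, n = 2) than in Q20 (11.3 ± 0.793, SD, n = 2), a log2 change of -3.39 (SE 0.53, limma adjusted p = 0.00257). Its trend was -2.94 (SE 0.81, limma adjusted p = 0.0345), and edgeR's count test did not call it (adjusted p = 0.211).

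Bmp4, which with LIF supports mESC and in the embryo patterns the dorsal neural tube, was highest in the Q20 NPC. Its CPM was 1.18 and 1.92 in Q20, 0.406 and 0.383 in Q111, 0.158 and 0.0736 in WT, 0.0591 and 0.0971 in KO, and 0.058 and 0.0588 in Q50. No Bmp4 read was counted in either Q92 library, which allows up to 3 reads, or a CPM of 0.0495 and 0.0469. Bmp4 passed the NPC filter only through its Q20 libraries, and its highest CPM in another genotype was 0.406. Its calls against Q20, and its place in the counts among the 10, follow in part from that filter. Bmp4 was higher in Q20 than in WT by 1.18 on the log2 scale (SE 0.14, limma adjusted p = 0.000648). This was the only call among the 10, where 9.97% of all genes rose and 4.57% fell. With the Q20 and WT libraries fitted alone its adjusted p was 0.0804 by limma. These are the 2 libraries with Pou5f1 and Nanog, and the part of that signal in the Bmp4 level was not tested. Against Q20 it was lower in Q50 by a log2 change of -1.25 (SE 0.14, limma adjusted p = 0.000416) and in Q111 by -0.86 (SE 0.14, limma adjusted p = 0.00294). In Q92 its mean was at least 31.3-fold lower than in Q20, with the floor of 3 reads per library (limma adjusted p = 0.000237). Bmp4 lies on chromosome 14 (46383520 to 46390669, minus strand) and overlaps exons of Gm15217 on the other strand, and the sources used here do not say whether counting used strand.

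**Figure D2:**
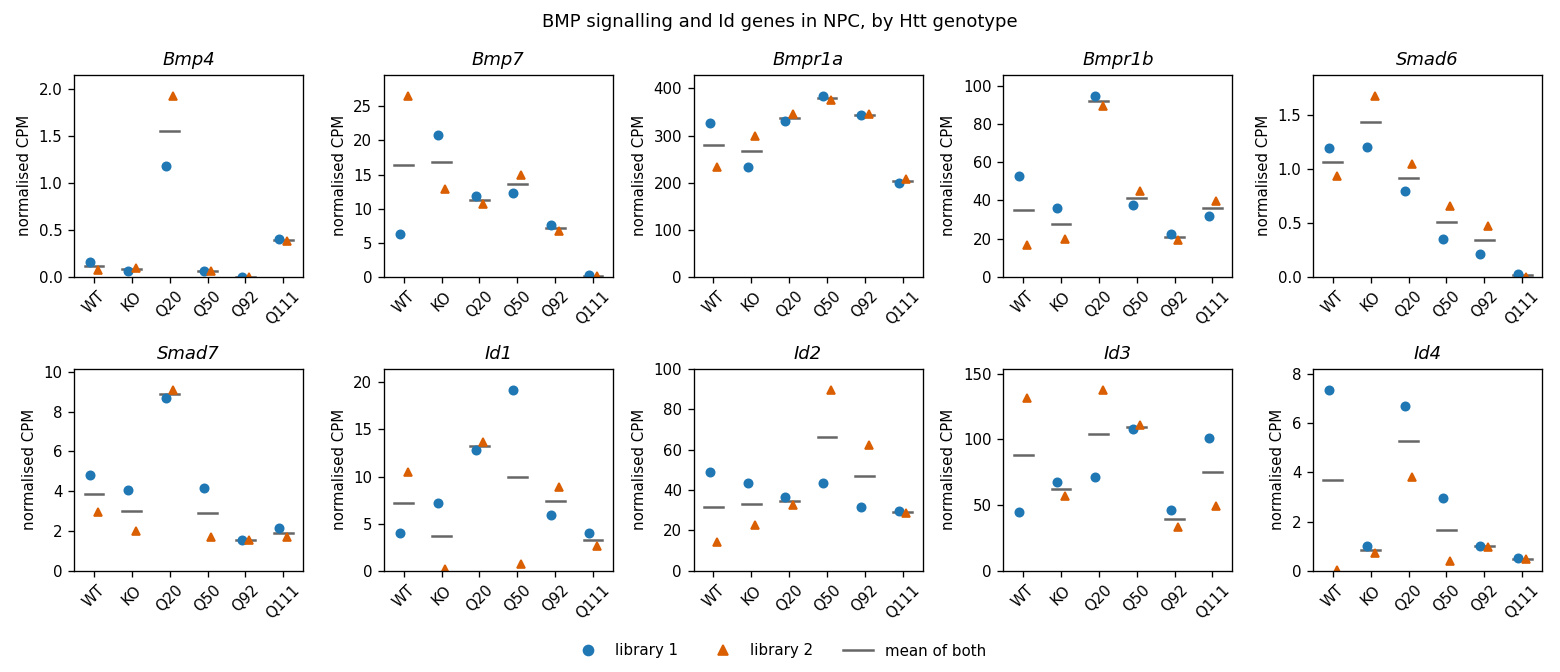
Normalised CPM (y axes, linear) of the 10 genes in the 12 NPC libraries by Htt genotype (x axis), with circles for library 1, triangles for library 2 and bars for their mean. Bmp4, Bmpr1b and Smad7 peak in Q20, Bmp7 and Smad6 are near 0 in Q111, and the 2 libraries of a genotype often stand far apart for Id1, Id2, Id3 and Id4.

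The receptors differed in which lines were low. Bmpr1a (chromosome 14, 34410734 to 34503341, minus strand), the broadly expressed type I receptor, had a CPM of 200 and 208 in Q111 and 330 and 347 in Q20. Q50 (383 and 375) and Q92 (343 and 346) overlapped or exceeded Q20, and WT (327 and 233) and KO (234 and 298) lay between Q111 and Q20. Its mean in Q111 (204 ± 5.26, SD, n = 2) was 1.66-fold lower than in Q20 (338 ± 11.7, SD, n = 2), with a log2 change of -0.73 (SE 0.17, limma adjusted p = 0.0169). The call was lost when any of these 4 libraries was left out (limma adjusted p from 0.0738 to 0.0895). Bmpr1b (chromosome 3, 141837136 to 142169425, minus strand), the type I receptor with the more restricted expression, had a CPM of 94.6 and 89.6 in Q20, above every other library. It was 53.0 and 16.8 in WT, 35.8 and 19.9 in KO, 37.4 and 45.2 in Q50, 22.4 and 19.3 in Q92, and 32.1 and 39.7 in Q111. The Q92 mean was 4.43-fold lower than that of Q20, with a log2 change of -2.10 (SE 0.47, limma adjusted p = 0.0134), and it was 1 of 3 called among the 10 in that comparison, all lower (with Bmp4 and Smad7), where 15.9% of all genes fell. Leaving out any of its 4 libraries raised the limma adjusted p to between 0.0598 and 0.0749. The trend of Bmpr1b was -1.55 (SE 0.42, limma adjusted p = 0.0332) and -0.59 (limma adjusted p = 0.565) without the Q20 line.

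Smad7, which blocks the activated receptors of the BMP and TGF-beta pathways, fell in each of the 3 longer-repeat lines. Its CPM was 8.67 and 9.06 in Q20, 4.16 and 1.69 in Q50, 1.55 and 1.56 in Q92, 2.17 and 1.67 in Q111, 4.82 and 2.93 in WT, and 4.04 and 1.99 in KO. The Q20 libraries were the highest of the 12. The mean was 3.03-fold lower than Q20 in Q50 (log2 change -1.40, SE 0.36, limma adjusted p = 0.0277), where 2 of the 10 genes and 10.7% of all genes fell. It was 5.69-fold lower in Q92 (log2 change -1.95, SE 0.36, limma adjusted p = 0.00539) and 4.62-fold lower in Q111 (log2 change -1.76, SE 0.36, limma adjusted p = 0.00888). The Q50 call was lost without Q50 library 2 (limma adjusted p = 0.162), without either Q20 library (0.114 and 0.12) and with edgeR (adjusted p = 0.0772), and the Q111 call without Q111 library 2 (limma adjusted p = 0.0611). Its trend of -1.73 (SE 0.43, limma adjusted p = 0.0243) was -0.64 (limma adjusted p = 0.451) without the Q20 line.

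Smad6 (chromosome 9, 63953076 to 64022059, minus strand), the inhibitory Smad that acts mainly on BMP signals, was low throughout NPC. Its CPM was 0.795 and 1.04 in Q20, 0.348 and 0.658 in Q50, 0.215 and 0.469 in Q92, 1.19 and 0.933 in WT, and 1.20 and 1.67 in KO. Only 2 reads were counted in Q111 library 1 (CPM 0.0271) and 0 in library 2, where 3 reads would be a CPM of 0.0425. The groups order from Q20 down to Q111 by their means, although Q50 and Q92 overlap. The log2 change in Q111 was -0.92 (SE 0.17, limma adjusted p = 0.00529) and the trend -0.81 (SE 0.20, limma adjusted p = 0.0265), the latter not called by edgeR (adjusted p = 0.105).

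Of the Id genes, which are the pathway's direct targets, Id4 alone had a called change in NPC in the fit over all libraries, as a trend. With both groups fitted alone, Id4 was also called in Q92 and Q111 against Q20 and Id1 in Q111 against Q20, all lower. Of the 13206 genes tested, those fits called many more than the fit over all libraries, with the counts in the closing section. These added calls are therefore not particular to the Id genes. Id4 (chromosome 13, 48261228 to 48266026, plus strand), the Id gene best known from neural precursors, had a CPM of 6.70 and 3.82 in Q20, 2.94 and 0.376 in Q50, 1.02 and 0.985 in Q92, and 0.501 and 0.482 in Q111. The KO libraries had 1.01 and 0.706, and the WT libraries spanned 7.32 and 0.0491, more than the whole range of the knock-in lines. Its trend was -1.79 (SE 0.49, limma adjusted p = 0.0332) and -0.88 (limma adjusted p = 0.438) without the Q20 line, and its fall in Q111 against Q20, 10.7-fold by the means, was not called over all libraries. Exons of A330033J07Rik and Gm49291 overlap Id4 on the opposite strand.

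Id1 (chromosome 2, 152736251 to 152737410, plus strand), a widely used readout of BMP input, had a CPM of 12.8 and 13.7 in Q20, 3.97 and 2.62 in Q111, and 5.88 and 8.86 in Q92. In 2 genotypes its libraries lay far apart, 19.1 and 0.729 in Q50 and 7.23 and 0.141 in KO, and WT had 4.05 and 10.4. The Q111 mean was 4.02-fold lower than that of Q20 with no overlap, but the log2 change of -1.75 was not called over all libraries. Id2 (chromosome 12, 25093799 to 25097140, minus strand), which also restrains neuronal differentiation, ranged from 14.0 (WT) to 89.4 (Q50) and had log2 changes from -0.23 to 0.84 in the 3 comparisons with Q20. Id3 (chromosome 4, 136143497 to 136145755, plus strand), the Id gene with the highest level per length in NPC, ranged from 33.2 (Q92) to 137 (Q20), with log2 changes from -1.32 to 0.14. For Id1, Id2 and Id3 no comparison in NPC was called in the fit over all libraries, and the trend of Id1 was called without Q50 library 2.

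The knockout was not distinguished from the wild type in these genes. None of the 10 was called in the KO NPC, and none had an unadjusted p under 0.05 by limma, where 1.42% of all genes were called and 1755 genes, or 13.3%, had an unadjusted p under 0.05. The log2 changes of the 10 ran from -1.31 (Id1) to 0.30 (Bmp7). Leaving out a single WT library brought in calls among these genes, for KO against WT in Bmp7 and Id4 and for Q20 against WT as well. The number of calls over all genes also changed when 1 library was left out, as the closing section gives. The pairs of WT libraries lay furthest apart for Id4, Bmp7, Bmpr1b and Id2.

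Cell type markers moved with the genotype in NPC. The summed level of 8 astrocyte markers was 1126 to 1364 in Q92 and Q111 against 3400 to 4042 in Q20 and Q50, and 1961 to 4874 in KO and WT. Not every astrocyte marker followed the sum. Aldh1l1 was 137 and 131 in Q111, above Q50 (23.7 and 30.4), WT (70.3 and 33.9) and KO (15.8 and 8.14) and below Q20 (235 and 215). Gja1 was 1.95 and 205 in the Q92 libraries. The 8 feeder fibroblast markers, all listed, summed to 311 and 252 in Q20 and 895 and 917 in Q50, but to 2.69 to 7.69 in Q92 and Q111 and 22.7 to 38.0 in WT and KO. The 6 oligodendrocyte lineage markers summed to 314 and 339 in Q20, 26.8 and 25.6 in Q92 and 186 and 192 in Q111. The 8 neuron markers summed to 753 to 1042 in the knock-in lines and to 1259.8 to 1638 in WT and KO, most of it Map2. Within that list Stmn2 was 103 and 128 in Q20 against at most 5.51 elsewhere. Dcx was 38.6 and 52.2 in Q20 against at most 9.03, and Tubb3 32.6 and 121 against at most 20.4. The same Q20 libraries held the highest Bmp4, Bmpr1b and Smad7. Map2 was lowest in Q20 (599 and 646, against at least 714 elsewhere), and Syt1 was highest in Q111 (17.7 and 16.2). Rbfox3 (1.59 and 1.54) and Snap25 (1.43 and 2.02) were also highest in Q20, at low levels. Stmn2 and Tubb3 were also counted in every mESC library (173 to 391 and 10.3 to 205), and Dcx was not listed in mESC. Whether the Q20 levels of these genes came from neurons was not tested. No fibroblast marker was at 0 in any NPC library. The part of these markers in the levels of Bmp4, Bmp7, the receptors and the inhibitory Smads was not tested, and in bulk RNA fewer cells of a type and less RNA per cell cannot be told apart.

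The rest of the pathway was read through 64 further genes in 7 lists, of which 45 were tested in NPC. In Q111 against Q20, 5 of the 45 rose and 13 fell, where 12.2% of all genes rose and 16.1% fell. In the trend 1 rose and 7 fell, where 12% of all genes rose and 10.1% fell. In Q50 against Q20, 6 rose and 10 fell (8.05% and 10.7% of all genes), and in Q92 against Q20, 3 rose and 9 fell (9.88% and 15.9%). Each of these falls came from several lists. In Q111, 2 of 5 ligands, 2 of 5 receptors, 1 of 4 Smads, 3 of 12 inhibitors, 3 of 7 extracellular modulators and 2 of 6 target genes fell, and 0 of 6 E proteins and proneural factors. The rises in Q111 were 3 of 12 inhibitors, 1 of 6 target genes and 1 of 6 E proteins and proneural factors. The ligand Bmp8a and the modulator Tll2 were tested in NPC only through their Q20 libraries, and the ligand Bmp2 only through Q50. Without these 3, of 42 genes 5 rose and 11 fell in Q111, 5 rose and 8 fell in Q50, 3 rose and 7 fell in Q92, and 1 rose and 6 fell in the trend. Against WT, 4 of the 45 rose and 7 fell in Q111 (8.74% and 7.9% of all genes). In Q50, 3 rose and 1 fell (4.54% and 2.08%), and in Q92, 4 rose and 4 fell (3.42% and 5.25%).

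Among the ligands, Bmp5 had a CPM of 34.4 and 24.4 in the KO NPC against 1.82 and 1.63 in WT, a rise of 3.46 on the log2 scale (SE 0.22, limma adjusted p = 0.000449). It was 2.45 and 2.48 in Q20, 0.149 and 0.641 in Q92, and 0.0677 and 0.0992 in Q111, so that Q111 was lower than Q20 by a log2 change of -1.68 (SE 0.22, limma adjusted p = 0.00096) and lower than WT by -1.33 (SE 0.22, limma adjusted p = 0.00664). The KO calls of Bmp5 (limma adjusted p = 0.451), Runx2 (0.574) and Sostdc1 (0.687) were lost when the WT and KO libraries were fitted alone. That fit of WT and KO alone called no gene of the table, so a call lost there is not particular to these genes. The call of Sostdc1 was also lost with edgeR (adjusted p = 0.179). Bmp5 was 1 of 4 pathway genes called in KO, all higher, where 0.878% of all genes rose. The others were Runx2, a BMP-responsive transcription factor of bone (log2 change 1.55), Sostdc1, a secreted BMP antagonist (1.96), and Crim1, which tethers BMPs at the cell surface (1.04, named after its values were seen).

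Secreted antagonists went both ways. Chrd, which binds BMPs outside the cell, was 8.60 and 10.1 in Q20, 4.18 and 3.81 in Q50, 3.10 and 3.56 in Q92, and 1.98 and 1.97 in Q111, with a trend of -1.58 (SE 0.28, limma adjusted p = 0.00696). In Q111 it was also lower than in WT (6.73 and 3.88), with a log2 change of -1.05 (limma adjusted p = 0.0428). Chrdl1, a chordin-like antagonist, was 63.4 and 52.7 in Q111 against 9.08 and 10.9 in Q20 (log2 change 2.42, SE 0.23, limma adjusted p = 0.000208), 24.0 and 30.8 in Q50 and 10.6 and 8.69 in Q92, so it had no order with repeat length. Against WT it rose in Q111 (log2 change 2.51, limma adjusted p = 0.000387) and Q50 (1.45, limma adjusted p = 0.0094). Sostdc1 was 6.31 and 4.89 in Q111 against 0.832 and 0.45 in Q20 (log2 change 2.01, SE 0.30, limma adjusted p = 0.00191), and rose against WT as well (2.25, limma adjusted p = 0.00248). Bmper, a BMP-binding modulator, had no order with repeat length either: 4.68 and 4.62 in Q20, 30.2 and 25.01 in Q50, 16.3 and 13.1 in Q92, and 2.64 and 3.05 in Q111. Against WT (18.4 and 23.5) Bmper fell in Q111 (log2 change -2.51, limma adjusted p = 0.000204) and was not called in Q50 or Q92. Fstl1, another listed modulator, was 84.1 and 40.1 in Q111 against 217 and 220 in Q20. It also fell in Q111 against WT (log2 change -2.35, limma adjusted p = 0.00205). Fst, the activin and BMP antagonist follistatin, was 6.21 and 6.03 in Q20 against 0 and 0.356 in WT (log2 change 2.61, SE 0.18, limma adjusted p = 3.74e-05). In that comparison 5 pathway genes rose, Fst among them, and 5 fell, or 3 and 5 without those tested through 1 genotype. Fst also rose against WT in Q50 (1.62, limma adjusted p = 0.00144), Q92 (1.70, limma adjusted p = 0.00164) and Q111 (1.90, limma adjusted p = 0.000479). Its CPM in KO was 0.305 and 0.653.

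Of the receptors and Smads, the type II receptor Bmpr2 was 136 and 159 in Q20 against 339 and 244 in WT and 350 and 322 in Q50. It fell in Q20 against WT (log2 change -0.97, SE 0.19, limma adjusted p = 0.0113, and 0.0937 without Q20 library 1) and rose in Q50 against Q20 (log2 change 1.19, SE 0.19, limma adjusted p = 0.00349), while against WT no change was called in Q50, Q92 or Q111. Smad9, a receptor-activated Smad, was 5.90 and 5.61 in Q20 and 1.11 and 0.782 in Q92 (log2 change -1.80, SE 0.30, limma adjusted p = 0.00326), but not called in Q92 against WT (2.77 and 1.08, limma adjusted p = 0.292).

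Hey1, a bHLH repressor induced by BMP and Notch, was 44.2 and 51.6 in Q20, 31.7 and 48.9 in Q50, 11.3 and 12.3 in Q92, and 13.4 and 12.3 in Q111. Its trend was -2.14 (SE 0.31, limma adjusted p = 0.00357), and against WT (72.2 and 31.6) it fell in Q92 (log2 change -1.93, limma adjusted p = 0.0492) and Q111 (-1.82, limma adjusted p = 0.0409). Olig2, the oligodendrocyte and progenitor factor that Id2 and Id4 can bind, had the one called rise with repeat length, with a CPM of 31.2 and 60.5 in Q20, 56.4 and 117 in Q50, 150 and 193 in Q92, and 217 and 644 in Q111 (trend 2.91, SE 0.51, limma adjusted p = 0.00677). The WT (434 and 195) and KO (332 and 159) libraries lay within the range of the longer-repeat lines, Q20 had the lowest mean, and no change of Olig2 against WT was called in Q50, Q92 or Q111 (limma adjusted p from 0.161 to 0.728). With 1 mean per line none of these trends was called, with limma adjusted p from 0.295 to 0.339 for Hey1, Olig2, Bmp5 and Chrd, and without the Q20 line those of Olig2 (0.0682) and Chrd (0.112) were not.

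**Figure D3:**
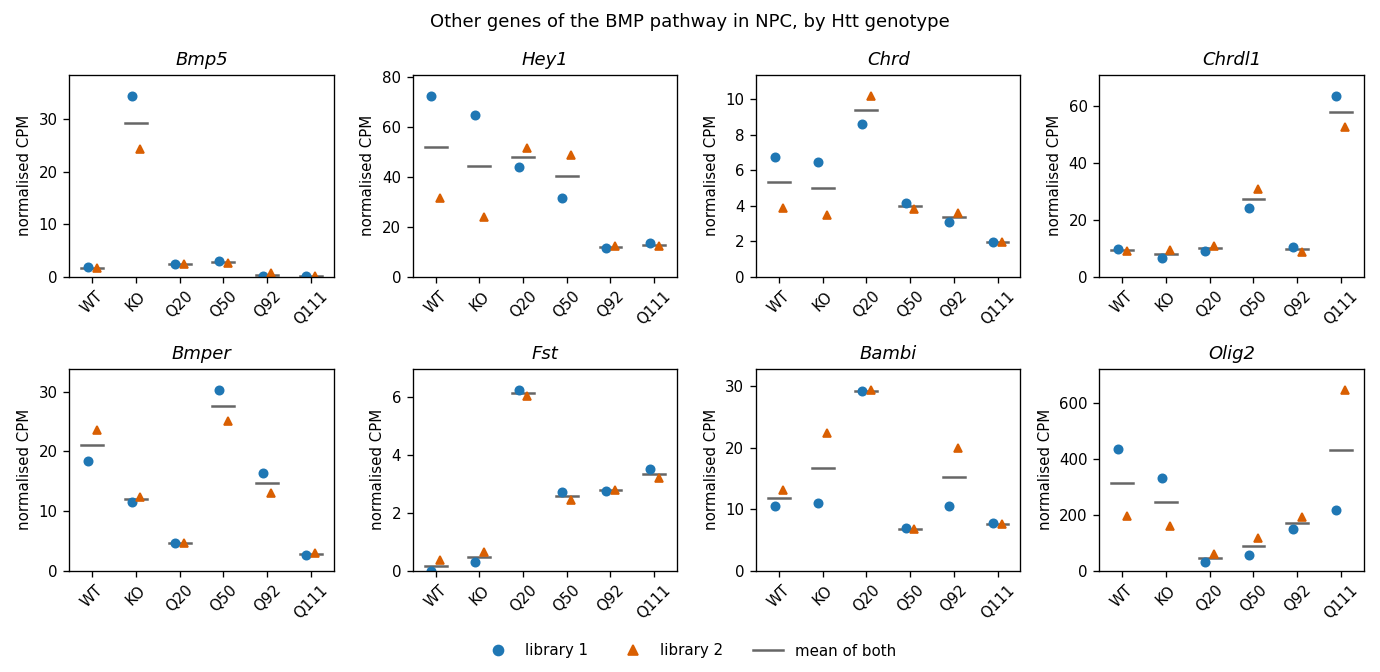
Normalised CPM (y axes, linear) of 8 further BMP pathway genes in the 12 NPC libraries by Htt genotype (x axis), with circles for library 1, triangles for library 2 and bars for their mean. Bmp5 stands out in KO with 34.4 and 24.4, Chrdl1 in Q111 with 63.4 and 52.7, and Chrd and Hey1 are lower in Q92 and Q111 than in Q20.

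In mESC none of the 10 genes was called between genotypes without a term for the replicate number. This held for KO against WT (0.0144% of all genes called; 0 of the 10 and 553 genes, or 3.97%, at an unadjusted p under 0.05 by limma), Q20 against WT (0.323%), Q50 against Q20 (0.00719%), Q92 against Q20 (0.00719%), Q111 against Q20 (0%) and the trend (0%). In these last 2, 374 and 358 genes had an unadjusted p under 0.05. Only Id1 and Bmpr1a, in Q50 against Q20, had an unadjusted p under 0.05 among the 10, as did 6.37% of all genes there. Id1 was 24.9 and 52.4 in Q20, 2.78 and 2.00 in Q50, 13.7 and 1.07 in Q92, 19.6 and 0.871 in Q111, 15.1 and 4.97 in WT, and 11.4 and 2.64 in KO. The Q20 libraries were thus the highest of the 12, and Q50 was 16.2-fold lower by the means (log2 change -3.46, limma unadjusted p = 0.0217, adjusted p = 0.676). None of the 64 other pathway genes, 43 of them tested, was called between genotypes in these fits.

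Between the 2 libraries of an mESC genotype, 5 of the 10 genes differed in the same direction in all 6 genotypes, as did 41.4% of all tested genes. Bmp4 was higher in library 2 than in library 1 in each genotype: 134 against 27.3 in WT, 90.2 against 21.7 in KO, 23.6 against 8.09 in Q20, 72.3 against 35.4 in Q50, 36.5 against 10.2 in Q92, and 18.8 against 8.75 in Q111. Id3 went the same way, with 9.26 to 19.8 in the 6 libraries numbered 2 and 3.05 to 9.86 in those numbered 1. Bmp7 went the other way, with 1.66 to 3.37 in library 2 and 5.999 to 12.5 in library 1, so that its 2 sets of libraries did not overlap. Bmpr1a and Bmpr1b were higher in library 1 in 6 of 6 genotypes as well.

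A replicate term, added after these values were seen and so no independent test, gave a log2 change from library 1 to library 2 of 1.58 for Bmp4 (SE 0.18, limma adjusted p = 0.000568), 1.34 for Id3 (SE 0.17, limma adjusted p = 0.000795) and -1.50 for Bmp7 (SE 0.14, limma adjusted p = 0.000229). Bmpr1b (-0.78) and Bmpr1a (-0.19, limma adjusted p = 0.0475, not called by edgeR) also fell. In all, 2 of the 10 rose and 3 fell, which is close to the whole table, where 20.5% of genes rose and 22.8% fell. The same term called 0% of genes in NPC by limma and 0 by edgeR (816 at an unadjusted p under 0.05). Marker levels moved with the library number too. The summed neural progenitor and neuron markers were higher in library 2 in 6 of 6 genotypes and the pluripotency markers in 5 of 6. Within each list, markers went both ways. In all 6 genotypes Pou5f1, Zfp42, Klf4, Tfcp2l1, Vim, Pax6 and Tubb3 were higher in library 2. Dppa5a, Prom1, Rbfox3 and Snap25 were lower in library 2 in all 6. The part of these markers in the differences of Bmp4, Id3 and Bmp7 was not tested.

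Because the numbers pair the mESC libraries in this way, the fit with the replicate number as a block stands beside the comparison it changes. In it Bmp4 fell in Q20 against WT in mESC, with a log2 change of -2.05 (SE 0.32, limma adjusted p = 0.0131), where 4.69% of all genes fell in the blocked fit. By the means, Bmp4 was 5.10-fold lower in Q20 (8.09 and 23.6) than in WT (27.3 and 134). The direction was opposite to that in NPC, where Bmp4 was higher in Q20, but the difference itself was not tested. The overlapping Gm15217 was at 0.08 to 0.57 in mESC. Of the 43 other pathway genes, 6 rose and 2 fell in Q20 against WT in the blocked fit, where 5.91% of all genes rose. Tll1, a BMP-freeing protease of the tolloid family, had the smallest p, with 4.03 and 5.76 in Q20 against 0.494 and 1.01 in WT (log2 change 1.75, SE 0.19, limma adjusted p = 0.00656), and Bmp1, of the same family, was 10.9 and 16.1 against 3.46 and 5.61 (1.39, SE 0.21, limma adjusted p = 0.0126). Both were chosen after their values were seen. In the longer-repeat mESC lines Tll1 was 1.65 to 5.09 and Bmp1 7.50 to 14.7. The feeder fibroblast markers, 7 of 8 listed, summed to 53.6 and 71.0 in the Q20 mESC and 15.2 and 18.0 in WT. They summed to 47.7 to 66.4 in the longer-repeat lines. Of these markers, Thy1 alone was lower in Q20 (7.53 and 4.45) than in WT (9.66 and 11.3). The part of the feeder cells in the levels of Tll1 and Bmp1 was not tested. In the other blocked mESC fits none of the 10 and none of the 43 was called by limma (2 to 13 of the 43 at an unadjusted p under 0.05), where 0.115% (KO against WT), 0.984% (Q50), 0.46% (Q92), 0.0575% (Q111) and 0% (trend) of all genes were.

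**Figure D4:**
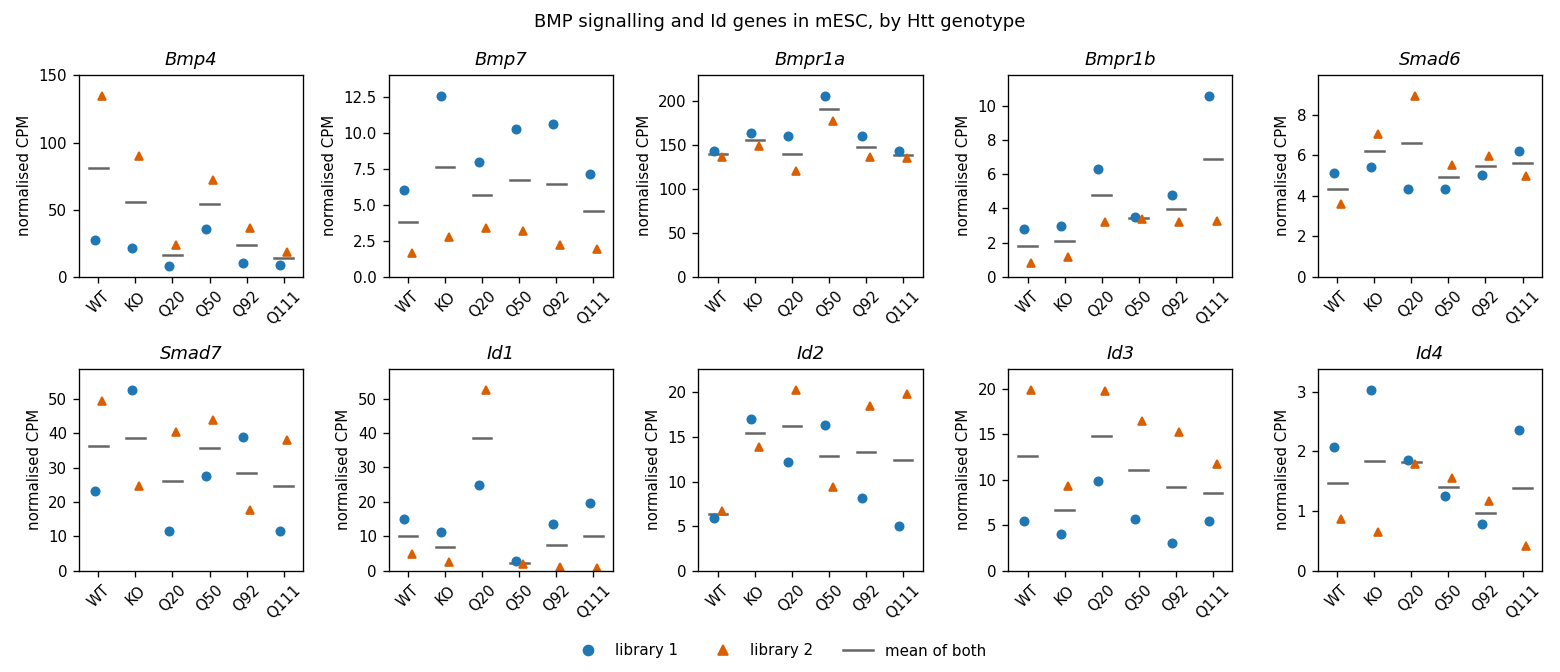
Normalised CPM (y axes, linear) of the 10 genes in the 12 mESC libraries by Htt genotype (x axis), with circles for library 1, triangles for library 2 and bars for their mean. The triangles of Bmp4 and Id3 lie above the circles in all 6 genotypes and those of Bmp7 below, and the Q20 libraries hold the highest Id1 values, 24.9 and 52.4.

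A direct test of the difference between the NPC and mESC trends, over 12321 genes tested in both tables, called none of the 10 genes (3 at an unadjusted p under 0.05 by limma, where 4.86% of all genes were called and 20.5% had such an unadjusted p). The largest estimate was that of Bmp7, -2.61 (limma adjusted p = 0.194), so a trend called in NPC for these genes was not shown to be absent from mESC.

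Across the 12 libraries of a table, the levels of the 10 genes were compared with each other as a description, since the libraries share genotypes and scaling. In NPC the highest Pearson correlations of log2(CPM + 1) were between Id4 and Smad7 (0.79), Bmp4 and Bmpr1b (0.79), Smad7 and Bmpr1b (0.78), Bmp4 and Smad7 (0.75), Bmp7 and Smad6 (0.74), and Id4 and Bmpr1b (0.73). Bmp4, Bmpr1b and Smad7 were each highest in both Q20 libraries, and Bmp4 was at most 0.406 in any other genotype. The part of the Q20 libraries in these correlations was not tested. In mESC the furthest from 0 were those of Bmp4 with Bmpr1b (-0.87) and Id3 with Bmp7 (-0.85), genes that differed between libraries 1 and 2 in opposite directions. The genes outside the pathway most like Id1 were Dusp8 (0.86), Tbc1d22b (0.83) and Cd99l2 (0.83) in NPC and Pkd1l1 (0.88), Nme4 (0.84) and 0610012G03Rik (0.84) in mESC, and no gene was among the 3 in both cell types.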

How the data were processed

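RNA of 24 libraries was sequenced as paired-end reads of 75 bases, per the labels' protocols. CASAVA 1.8, STAR and GRCm38.p6 are named in the submitters' processing notes, and the counting tool is not given in the sources used here. The values deposited by the authors are a normalised signal per gene whose columns are named CPM. The column totals were 900342 to 1056443 in NPC and 948363 to 1080734 in mESC, so they are not plain CPM. Whole reads could be recovered from their steps: 100% of values were whole within 0.01 of a read in all 24 columns. The tables repeat some gene IDs, leaving 17501 of 17505 rows in mESC and 16024 of 16025 in NPC. GENCODE annotation of GRCm38 held 99.6% of the mESC IDs and 99.8% of the NPC IDs.

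limma 3.58.1 in R 4.3.3, with a variance trend, was fitted on log2(value + 1) for genes with a value of 1 or more in 2 or more libraries, separately for each table over its 12 libraries, and as a slope over the 8 knock-in libraries. Tests were two-sided, with Benjamini-Hochberg adjustment over all tested genes at 0.05. Alternatives were a pseudocount of 0.25, no filter, the replicate block, fits of both groups alone, 1 mean per line, no Q20 line and leaving out each library. Added after seeing the data were edgeR 4.0.16 (quasi-likelihood) on recovered reads, median-of-ratios scaling, the replicate term, pathway genes in blocked mESC fits, pathway counts without genes tested through 1 genotype, and WT as the reference for the longer repeats in NPC. edgeR called 107 genes for KO against WT in NPC and 12 for Q20 against WT in mESC. The tests were tried on simulated data.

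Same-numbered libraries deviated together in mESC (correlation over 0.1 in 15 of 15 pairs of genotypes, 0.25 to 0.55), so the numbers were taken to pair the mESC libraries. In NPC they did so in 3 of 15, WT with KO (0.47), WT with Q50 (0.17) and KO with Q50 (0.11), and the numbers were not taken to pair the NPC libraries. The series text calls the 2 libraries of a group biological samples.

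Members and lists were chosen with earlier results of these data known. Named were the 10 members and Htt, up to 3 called pathway genes per direction and comparison by the smallest p, described where their values add to the account, and the 3 genes most correlated with Id1.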

Additional observations from a re-analysis of the deposited data

Results flagged for a closer look

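The trend of Hey1 with repeat length differed between the cell types by a test of the difference itself. The NPC slope minus the mESC slope was -2.09 on the log2 scale over the 91 repeats (SE 0.49, limma adjusted p = 0.023). It was the 1 call among 35 pathway genes tested for this difference, or 2.86%, against 4.86% of all genes. In mESC the level of Hey1 was 4.26 and 3.29 in Q20, 3.68 and 1.34 in Q50, 3.59 and 3.03 in Q92, and 2.99 and 3.29 in Q111, against a fall from 44.2 and 51.6 to 13.4 and 12.3 in NPC. The call was lost with 1 mean per line (limma adjusted p = 0.338) and without the Q20 line (limma adjusted p = 0.0868). The levels of the 2 tables are scaled separately, and on the log2(CPM + 1) scale a slope at a low level is understated.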

How the results depend on the processing

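In NPC, with both compared groups fitted alone, the genes called were 0 for KO against WT (650 at an unadjusted p under 0.05), 476 for Q20 against WT, 3927 for Q50, 6160 for Q92 and 6712 for Q111 against Q20, and of the 10 genes 0 were called for Q20 against WT, 5 for Q92 and 8 for Q111. With WT in place of Q20 as the reference, 0 of the 10 were called for Q50, 0 for Q92 and 2 for Q111. In mESC such fits called 0 genes for KO against WT (320 unadjusted), 0 for Q20 against WT (1097 unadjusted) and 0 for Q92 against Q20 (515 unadjusted). With 1 mean per line, 0 genes had a called NPC trend (1831 unadjusted), 0 of the 10 among them, and 0 a called slope difference (1358 unadjusted). Without the Q20 line 1880 genes had a called NPC trend, 1 of the 10 among them, and 225 a slope difference.

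With the replicate block, mESC calls were 16 for KO against WT, 1475 for Q20 against WT (1 of the 10, Bmp4), 137 for Q50, 64 for Q92 and 8 for Q111 against Q20, and 1005 for the slope difference. In NPC, where the numbers did not pair all genotypes, the block gave 145 genes and 0 of the 10 for KO against WT, 2 of the 10 for Q20 against WT and 3 for the trend. The pseudocount of 0.25 gave 2 genes for Q92 against Q20 in mESC, and no filter gave 1 for Q111. edgeR called 12 genes for Q20 against WT in mESC, 107 for KO against WT in NPC, and of the 10 genes 1 for Q50 against Q20 and 3 for the trend. Median-of-ratios scaling moved the Htt change in the KO NPC to -0.70, past the threshold.

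Leaving out 1 library at a time, which lets the lone library borrow the spread of the other groups, the mESC calls ranged from 0 to 1 for KO against WT, 0 to 7 for Q20 against WT, and 0 to 2 for each of Q50, Q92 and Q111 against Q20. In NPC the genes called ranged from 107 to 1577 for KO against WT, 1014 to 2846 for Q20 against WT, 1258 to 1423 for Q50, 1618 to 1882 for Q92, 1569 to 1873 for Q111 and 1213 to 2891 for the trend. Of the 10 genes they ranged from 0 to 2 for KO against WT, 1 to 5 for Q20 against WT, 1 to 2 for Q50, 3 to 4 for Q111 and 0 to 5 for the trend. The Htt change ranged from -0.78 to 0.22 in mESC, reversed at 0.22 without KO library 2, and from -0.85 to -0.49 in NPC. The cause of these shifts was not tested. Depth limits Bmp4 in Q50 and Q92 and Smad6 in Q111, each at 0 to 5 reads per library.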
